A study of Mus musculus with 6 samples.

Results

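The 10 genes described here encode subunits and cofactors of the Polycomb repressive complexes PRC2 and PRC1. They were chosen by name from the 22602 genes of the RPKM table (reads per kilobase of cDNA, scaled to library size), and all 10 were listed and passed the filter on low values. 4 encode the PRC2 core or its catalytic alternatives (Ezh1, Ezh2, Eed, Suz12), 3 encode PRC2 cofactors (Jarid2, Mtf2, Phf19) and 3 encode PRC1 subunits (Rnf2, Ring1, Pcgf6).

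Polycomb complexes keep developmental genes silent. PRC2 methylates histone H3 to H3K27me3, and PRC1 attaches ubiquitin to histone H2A. In embryonic stem (ES) cells both complexes sit on CpG-rich promoters of genes that drive differentiation. ES cells can renew themselves without PRC2, but they differentiate poorly in its absence.

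mRNA was sequenced from 6 mouse ES cell libraries, 3 per group. Clones A6, B8 and C4 carry a Flag-tagged mouse Sim2 transgene at ROSA26 with an IRES-Venus marker. Its hCMV*-1 promoter is active once tetracycline is taken away. The control was the parental EB3 line (EBRTcH3), with libraries EB3-0, EB3-1 and EB3-2, which the methods call independent cultures. Cells of both groups spent 26 h without tetracycline before RNA was taken, and both carry the tetracycline-controlled activator of the parental line. The protein SIM2 binds DNA as a bHLH-PAS factor, and the design sets mRNA levels with it against those without it. Each Sim2 library is 1 clone and the EB3 libraries come from 1 line, so an effect of SIM2 and a difference between a clone and its parent line cannot be told apart. Clones kept in tetracycline were not analysed here.

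Sim2 itself was at 168 to 212 RPKM in the clones and at 0.0917 to 0.130 RPKM in EB3, as the labels say. Depth was 25095861 to 28269340 reads per library. The 7 ES cell markers examined, with Pou5f1 and Nanog among them, summed to 5499 to 6658 RPKM in the clones and 5541 to 6978 RPKM in EB3. Most of this sum came from Dppa5a and Pou5f1, so it says little about the others. Zfp42 and Tdgf1 were lower in every clone than in any EB3 library, with log2 differences (clones minus EB3) of -0.31 and -0.21. Esrrb was higher in every clone (0.31). In the other markers the groups overlapped. By limma 0 of the 7 had an adjusted p under 0.05, against 0.699% of all tested genes. With EB3-0 left out Zfp42 did (-0.29, adjusted p = 0.035), against 5.99%. Library EB3-0 stood apart from the other EB3 libraries. Over the 11595 tested genes, the Pearson correlation of log2 values was 0.997 between EB3-1 and EB3-2 and 0.980 between EB3-0 and EB3-1. Among the clones B8 stood apart, with 0.979 to A6 and 0.982 to C4, against 0.993 between A6 and C4. These correlations are across genes, which are not independent replicates.

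The promoters printed here are those of the 5 members with the largest differences between the groups. These are Phf19, Mtf2, Eed, Ring1 and Suz12, ordered by absolute value on the log2 scale. The difference of Suz12 turned on 1 library, and so did that of Rnf2, whose promoter is not printed. Each run holds 190 bases, from 250 to 61 bases before the RefSeq transcription start, 5′ to 3′ on the strand of the gene. The sequences come from the RefSeq promoter table of GRCm38.p6, and each was found letter for letter in mm9, whose positions are given. Capitals mark the letters TTCCCGC or their reverse complement GCGGGAA, a sequence of the kind that E2F factors bind. All other bases are in lower case.
Phf19, chr2:34769557-34769746, minus strand: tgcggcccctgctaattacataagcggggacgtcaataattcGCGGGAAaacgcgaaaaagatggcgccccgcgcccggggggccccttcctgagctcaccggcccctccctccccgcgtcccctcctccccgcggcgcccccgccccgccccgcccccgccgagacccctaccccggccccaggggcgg
Mtf2, chr5:108494443-108494632, plus strand: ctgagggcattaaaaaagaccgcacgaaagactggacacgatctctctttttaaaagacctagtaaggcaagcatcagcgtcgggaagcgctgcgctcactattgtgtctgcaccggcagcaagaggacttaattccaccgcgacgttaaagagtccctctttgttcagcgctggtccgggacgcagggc
Eed, chr7:97129547-97129736, minus strand: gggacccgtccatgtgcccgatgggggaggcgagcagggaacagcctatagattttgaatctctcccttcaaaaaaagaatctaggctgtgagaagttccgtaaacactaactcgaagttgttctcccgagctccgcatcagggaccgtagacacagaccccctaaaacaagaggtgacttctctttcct
Ring1, chr17:34161686-34161875, minus strand: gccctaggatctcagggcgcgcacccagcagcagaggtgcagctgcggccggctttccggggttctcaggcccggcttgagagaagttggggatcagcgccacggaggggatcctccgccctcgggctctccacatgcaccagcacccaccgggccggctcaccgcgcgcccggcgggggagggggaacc
Suz12, chr11:79806358-79806547, plus strand: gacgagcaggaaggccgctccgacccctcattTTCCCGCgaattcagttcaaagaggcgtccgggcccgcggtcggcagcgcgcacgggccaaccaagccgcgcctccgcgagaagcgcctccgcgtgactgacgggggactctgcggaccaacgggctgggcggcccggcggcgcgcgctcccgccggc

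All 10 members matched a RefSeq promoter of 300 bases, which runs from 250 bases before the start to 50 after it. These windows were rich in CG dinucleotides, with 17 (Eed) to 41 (Suz12) and a median of 30. Over all 32851 promoters of the table the median was 7 and the upper quartile 20. TTCCCGC, searched on both strands, was in 2 of the 10 windows and in 4.60% of all promoters. In Suz12 the match began 218 bases before the start, and in Phf19 208 bases before it. A second E2F-type sequence, TTGGCGC, was found in 1 member, Ezh2, and in 2.45% of all promoters. ACGTG, the core of sequences bound by SIM2 with its partner ARNT, was found in 1 member, again Ezh2, and in 19.6% of all promoters. The shares are over all promoters and were not matched for CG content, in which the windows of the members were rich. These matches describe letters in the window and are not evidence of binding.

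No member passed the test between the groups. By limma on log2(RPKM + 0.5), with p-values adjusted over the 11595 tested genes, 0 of 10 members had an adjusted p under 0.05, against 0.699% of all tested genes (81 genes). voom on the reads recovered from the table also called 0 of 10, against 0.552%. At an unadjusted p under 0.05 there were 4 members in each fit (Phf19, Eed, Mtf2 and Ring1), against 17.8% of tested genes by limma and 17.6% by voom. The fitted mean was lower in the clones for 8 of 10 members and higher for Ezh1 and Phf19. The median difference over the members was -0.18 on the log2 scale, with Sim2 minus EB3 as the direction throughout, and the median of all tested genes was -0.01. In 5 of 10 members the values of the clones and of EB3 did not overlap (Phf19 with the clones above, Eed, Mtf2, Ring1 and Pcgf6 with the clones below). This held for 26.1% of tested genes, 13.4% with the clones below and 12.7% with the clones above.

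**Figure D1:**
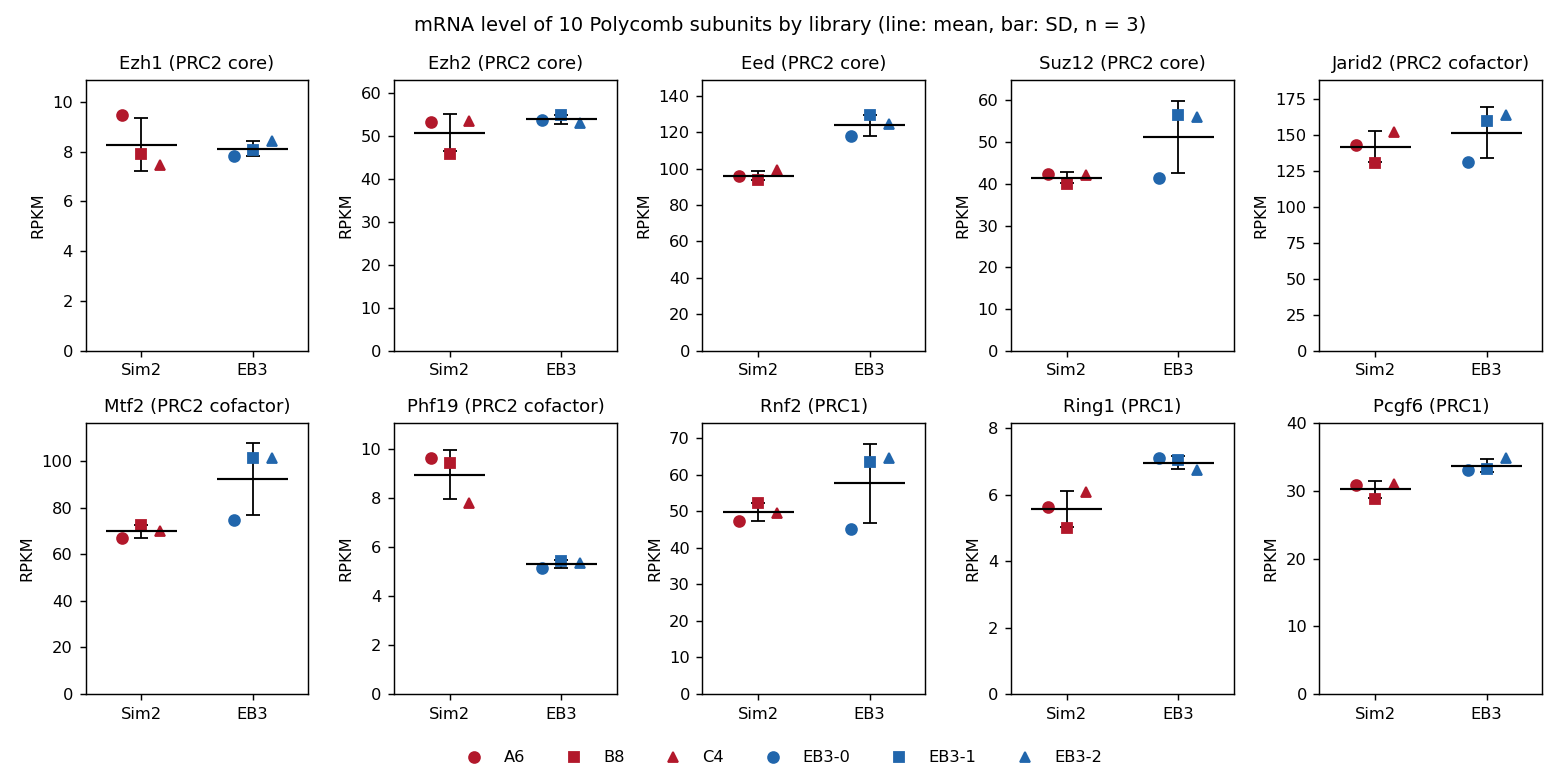
RPKM of each of the 10 Polycomb genes (1 panel per gene, vertical axis from 0) in the 3 Sim2 clones and the 3 EB3 libraries. Points are libraries, and bars are the mean with its SD; Phf19 is the panel with all clones above EB3, and in Suz12, Mtf2 and Rnf2 the EB3-0 point lies apart from EB3-1 and EB3-2.

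Ezh1 and Ezh2 encode the alternative methyltransferases of PRC2, and neither differed beyond the spread of the libraries. Ezh2 (chromosome 6, 47480273 to 47545029, minus strand, mm9, up to 20 exons per annotated transcript), the main enzyme of dividing cells, was at 53.1, 45.7 and 53.3 RPKM in A6, B8 and C4 and at 53.6, 54.8 and 52.9 RPKM in EB3-0, EB3-1 and EB3-2. B8 was the low library, and the others lay within 2 RPKM of each other. The log2 difference was -0.09 ± 0.09 (SE), with a 95% interval of -0.30 to 0.12 (limma adjusted p = 0.670). Ezh1 (chromosome 11, 101052429 to 101087764, minus strand), the enzyme that prevails in many resting cells, ranged from 7.46 to 9.47 RPKM in the clones and from 7.83 to 8.45 RPKM in EB3, with the EB3 values inside the range of the clones. Its log2 difference was 0.02 ± 0.13, with an interval of -0.27 to 0.31 (adjusted p = 0.955). The sign of this small value turned under several settings.

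Eed (chromosome 7, 97103164 to 97129486, minus strand) encodes the subunit that binds H3K27me3 and stimulates the enzyme. Its level was 95.8, 93.7 and 99.0 RPKM in A6, B8 and C4 and 118, 129 and 124 RPKM in EB3-0, EB3-1 and EB3-2. Every clone lay below every EB3 library, and the spread within each group was small beside the gap between them. The means were 96.2 ± 2.67 and 124 ± 5.87 RPKM (SD, n = 3 each), a log2 difference of -0.36 ± 0.08 with an interval of -0.55 to -0.18. The limma adjusted p was 0.0852, and the exact permutation p was 0.1, the smallest that 3 libraries against 3 allow. With EB3-0 left out the difference was -0.40 and the adjusted p 0.0247, and over all 6 ways of leaving out 1 library the adjusted p ran from 0.0247 to 0.331. The 7 tested genes that start within 1 Mb of Eed were all lower in the clones as well, with a median log2 difference of -0.42. Of all tested genes 50.9% were lower. What this neighbourhood has to do with the level of Eed was not tested. As in all bulk libraries, fewer cells of a type and less RNA per cell cannot be told apart.

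Suz12 (chromosome 11, 79806608 to 79847625, plus strand) encodes the scaffold of PRC2. It was at 42.4, 39.99 and 42.1 RPKM in A6, B8 and C4 and at 41.3, 56.5 and 55.9 RPKM in EB3-0, EB3-1 and EB3-2. EB3-0 lay among the clones, while EB3-1 and EB3-2 were above all of them. The log2 difference was -0.29 ± 0.13, with an interval of -0.58 to 0.01 (limma adjusted p = 0.293). With EB3-0 left out it was -0.43 and the adjusted p 0.0249, so 1 control library decided the call. Leaving out other libraries gave adjusted p-values of up to 0.589. Of the annotated Suz12 transcript, 1135 bases (26.0%) have a copy of at least 90% identity and 200 bases elsewhere in mm9, the longest 686 bases at 96.1% identity on chromosome 13. How reads that fit several places were counted is not given in the sources used here, so the level of Suz12 is uncertain in that respect.

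The PRC2 cofactors gave both the largest difference upward and the largest downward among the members. Phf19 and Mtf2 encode related Polycomb-like proteins, which bring PRC2 to CpG islands, and PRC2 takes up 1 Polycomb-like protein at a time. Jarid2 marks another form of PRC2, in which it binds nucleosomes and stimulates the enzyme.

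Phf19 (chromosome 2, 34749275 to 34769496, minus strand) was at 9.62, 9.43 and 7.80 RPKM in A6, B8 and C4 and at 5.14, 5.42 and 5.36 RPKM in EB3-0, EB3-1 and EB3-2. All 3 clones were above all EB3 libraries, and the EB3 values lay close together. The reads behind these values numbered 825 to 909 per library in the clones and 524 to 543 in EB3. The means were 8.95 ± 1.00 and 5.31 ± 0.150 RPKM (SD, n = 3 each), with 68.5% more in the clones. On the log2(RPKM + 0.5) scale the difference was 0.70 ± 0.13, with an interval of 0.40 to 0.99, which is a fold change of 1.62 on that scale. The limma adjusted p was 0.0644 and the exact permutation p 0.1. The call turned with EB3-0 left out (0.68 ± 0.12, adjusted p = 0.0357), though the difference and its SE hardly moved. The calls over all tested genes rose from 0.699% to 5.99% in that fit. It also turned with the trend on cDNA length removed from each library (0.67, adjusted p = 0.0325). Leaving out other libraries gave adjusted p-values of up to 0.257. With the length trend removed Phf19 was the 1 member called, against 2.49% of tested genes. A stretch of 354 bases (9.46%) of its transcript has a copy on chromosome 1.

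Mtf2 (chromosome 5, 108494761 to 108538021, plus strand) was at 66.8, 72.4 and 70.0 RPKM in A6, B8 and C4 and at 74.5, 101 and 101 RPKM in EB3-0, EB3-1 and EB3-2. The clones lay below EB3, but EB3-0 was nearer to the clones than to the other EB3 libraries. The means were 69.7 ± 2.82 and 92.2 ± 15.4 RPKM, a log2 difference of -0.39 ± 0.13 with an interval of -0.68 to -0.09 (limma adjusted p = 0.174, exact permutation p = 0.1). With EB3-0 left out it was -0.53 (adjusted p = 0.0167), and without other libraries the adjusted p was as high as 0.438. A copy of 12.2% of the transcript lies on chromosome 18.

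Jarid2 (chromosome 13, 44826640 to 45017012, plus strand) had the highest level of the 10 genes in every library, from 131 to 152 RPKM in the clones and from 132 to 164 RPKM in EB3. The groups overlapped, through EB3-0 at the bottom of the EB3 range. The log2 difference was -0.09 ± 0.11, with an interval of -0.35 to 0.17 (limma adjusted p = 0.714). Without EB3-0 it was -0.19 and still not called (adjusted p = 0.171, against up to 0.940 without another library).

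Rnf2 and Ring1 encode RING1B and RING1A, the alternative ubiquitin ligases at the heart of PRC1. Rnf2 (chromosome 1, 153316536 to 153347953, minus strand), the one that ES cells mainly rely on, was at 47.3, 52.2 and 49.5 RPKM in A6, B8 and C4 and at 45.1, 63.3 and 64.5 RPKM in EB3-0, EB3-1 and EB3-2. EB3-0 was the lowest of all 6 libraries, while EB3-1 and EB3-2 were the highest. The log2 difference was -0.19 ± 0.14 (limma adjusted p = 0.515), and with EB3-0 left out it was -0.36 (adjusted p = 0.0385). Leaving out other libraries gave adjusted p-values of up to 0.809.

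Ring1 (chromosome 17, 34157737 to 34161625, minus strand) was the least abundant PRC1 member, at 5.62, 5.00 and 6.07 RPKM in A6, B8 and C4 and at 7.10, 7.04 and 6.74 RPKM in EB3-0, EB3-1 and EB3-2. The groups did not overlap, and here EB3-0 sat with the other EB3 libraries. The log2 difference was -0.30 ± 0.13, with an interval of -0.59 to -0.01 (limma adjusted p = 0.262, exact permutation p = 0.1). It rested on 262 to 394 reads per library, the fewest of the members, and was not called in any setting tried.

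Pcgf6 (chromosome 19, 47108109 to 47125335, minus strand) encodes the Polycomb group RING finger protein of a variant PRC1 that, with partners such as MGA and E2F6, silences germ cell genes in ES cells. Its values were 30.9, 28.8 and 31.0 RPKM in A6, B8 and C4 and 33.1, 33.2 and 34.8 RPKM in EB3-0, EB3-1 and EB3-2. The clones were all below EB3, by a small margin. The log2 difference was -0.16 ± 0.08, with an interval of -0.35 to 0.04 (limma adjusted p = 0.385).

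**Figure D2:**
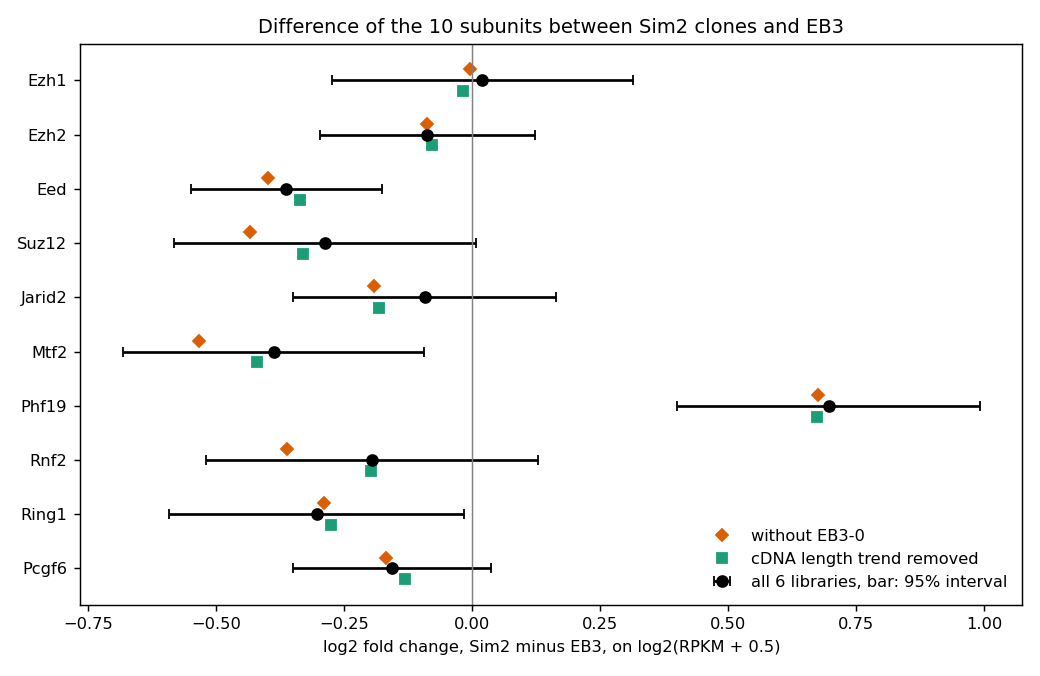
Difference between Sim2 clones and EB3 on the log2(RPKM + 0.5) scale (horizontal axis) for each member, as fitted with all 6 libraries (with 95% intervals), with EB3-0 left out and with the cDNA length trend removed. Phf19 lies between 0.67 and 0.70 in the 3 fits, while Suz12, Mtf2 and Rnf2 lie farther below 0 without EB3-0.

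The members fell into a high and a low set by level. Since RPKM is per length, levels can be set beside each other. In the clones the order of mean RPKM was Jarid2, Eed, Mtf2, Ezh2, Rnf2, Suz12, Pcgf6, Phf19, Ezh1 and Ring1. Neighbours in this order did not overlap over the 3 clones, except for Ezh2 with Rnf2 and Phf19 with Ezh1. In EB3 the order was Jarid2, Eed, Mtf2, Rnf2, Ezh2, Suz12, Pcgf6, Ezh1, Ring1 and Phf19, and Rnf2, Ezh2 and Suz12 overlapped in their ranges. Phf19 was thus above Ring1 in all 3 clones and below it in all 3 EB3 libraries. Among all tested genes the mean levels of the members ranged from the percentile of 31.9 for Ring1 to that of 95.9 for Jarid2. The 3 lowest members (Ring1, Phf19 and Ezh1) each have a more abundant paralog in the set.

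Ratios between paralogs, taken within each library, set these pairs against each other. The Phf19 to Mtf2 ratio was 0.144, 0.130 and 0.111 in A6, B8 and C4 and 0.0690, 0.0537 and 0.0530 in EB3-0, EB3-1 and EB3-2. Each clone had a higher ratio than any EB3 library. The mean log2 difference was 1.14, or 2.199-fold, and stayed between 1.05 and 1.26 when any 1 library was left out. By an exact permutation test this gave p = 0.1, as low as the design allows, and 0.4 after adjustment over the 4 ratios. The Jarid2 ratio to the sum of Mtf2 and Phf19 was 1.81 ± 0.187 in the clones and 1.56 ± 0.0789 in EB3 (log2 difference 0.21, exact permutation p = 0.2, adjusted 0.4). The Ezh1 to Ezh2 ratio was 0.164 ± 0.0208 and 0.151 ± 0.00758 (0.11, exact permutation p = 0.4, adjusted 0.533). The Ring1 to Rnf2 ratio was 0.112 ± 0.0146 and 0.124 ± 0.0287 (-0.13, exact permutation p = 0.7). In these last 3 ratios the groups overlapped.

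**Figure D3:**
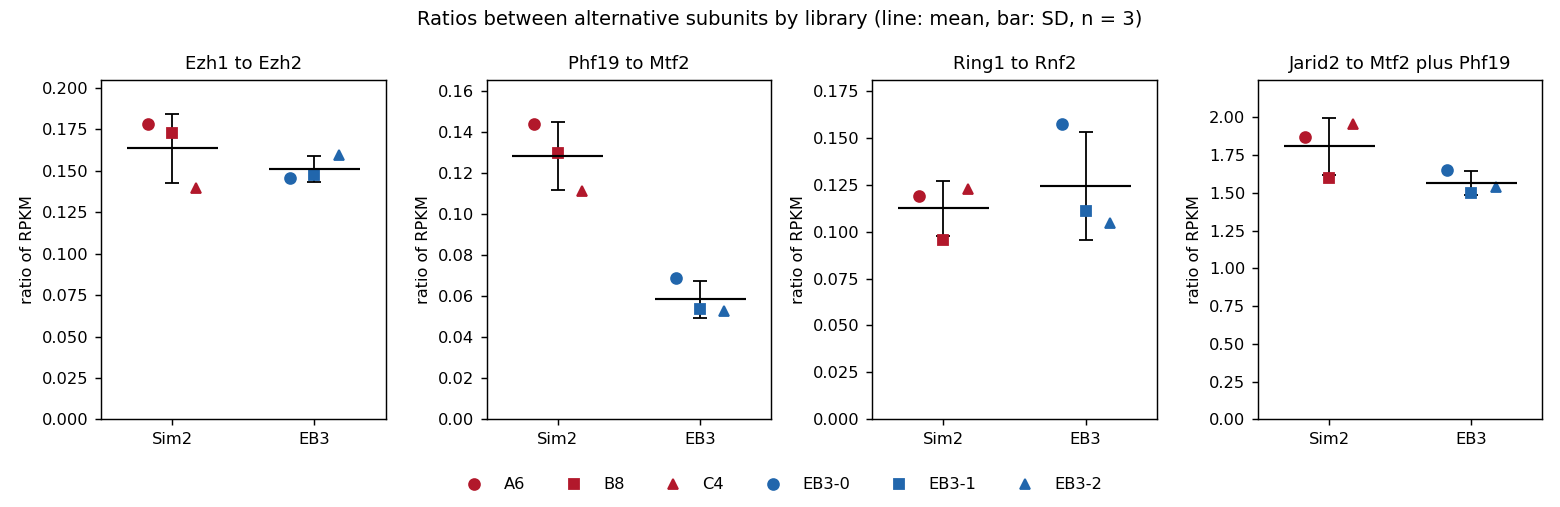
Ratio of RPKM within each library (vertical axis, from 0) for 4 pairs or groups of Polycomb genes; points are the 3 Sim2 clones and the 3 EB3 libraries, and bars are the mean with its SD. The groups are apart for Phf19 to Mtf2, at 0.111 to 0.144 in the clones and 0.0530 to 0.0690 in EB3, and overlap for the other ratios.

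Library EB3-0 decided several of these comparisons. EB3-0 minus the mean of EB3-1 and EB3-2 was -0.50 for Rnf2, -0.44 for Suz12, -0.44 for Mtf2 and -0.30 for Jarid2 on the log2 scale. For the other 6 members it lay between -0.11 (Eed) and 0.04 (Ring1). EB3-1 and EB3-2 differed by at most 0.07 in any member. The shift of EB3-0 moved with cDNA length over all genes. Its median was 0.07 over the 1960 tested genes with cDNAs of 2000 to 2700 bases, a range that holds Ring1 (2034), Eed (2060), Pcgf6 (2098) and Ezh2 (2652). It was -0.14 over the 4237 genes of 2900 to 6000 bases, where the other 6 members lie. With the length trend removed from each library, EB3-0 was at 0.02 for Jarid2, but still at -0.48 for Rnf2, -0.30 for Mtf2 and -0.27 for Suz12. It moved farther from 0 for Eed (from -0.11 to -0.22) and Pcgf6 (from -0.04 to -0.14). What set EB3-0 apart was not tested.

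**Figure D4:**
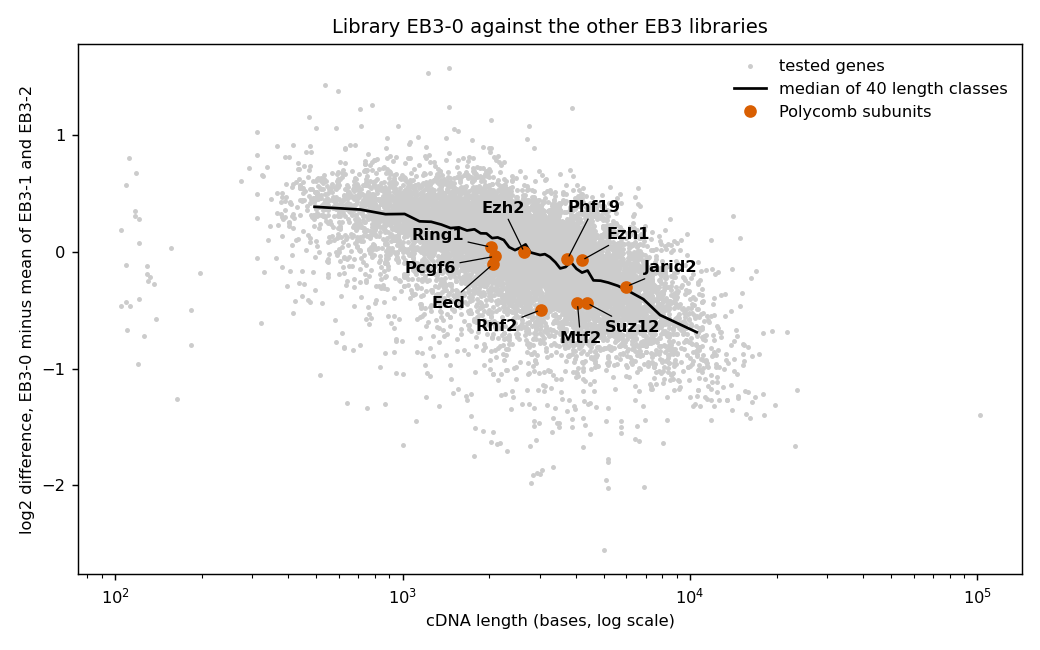
Log2 difference of EB3-0 from the mean of EB3-1 and EB3-2 (vertical axis) against cDNA length in bases (log axis), for all tested genes in grey and the 10 Polycomb genes in orange; the line joins the medians of 40 length classes. The line runs downward with length, Jarid2 lies at -0.30 near the line, and Rnf2 at -0.50 lies below it.

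Without EB3-0, 5 of 10 members were called by limma (Eed, Suz12, Mtf2 and Rnf2 lower and Phf19 higher), against 5.99% of tested genes (3.45% lower and 2.54% higher). The median difference of the members was then -0.24, and that of all tested genes -0.01. With the length trend removed as well, the same 5 members were called, against 7.35%. Both fits rest on EB3-1 and EB3-2, whose closeness makes the spread of the control group small. The labels do not say whether these libraries shared a preparation. If they did, the control arm of both fits would be 1 sample, and the 5 calls would have no spread among controls behind them. With EB3-1 and EB3-2 averaged into 1 library, 0 members were called (lowest adjusted p = 0.260, Phf19), against 0.0517%. All 3 clones lay on one side of EB3-1 and EB3-2 in 8 of 10 members, 7 below and Phf19 above, and this held for 49.3% of tested genes, 26.6% with the clones below.

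The other PRC2 subunits were put to the same test. Of 7 partners listed, 6 were tested and 0 were called by limma or voom. By limma 3 had an unadjusted p under 0.05, against 17.8% of tested genes. These were Aebp2, a DNA-binding cofactor (-0.29), Rbbp4, the histone-binding subunit (-0.26), and E130012A19Rik, the older name of Epop (-0.26). The median was -0.19. Lcor had the largest difference upward (0.61), at levels of 0.330 to 1.84 RPKM. Without EB3-0, Aebp2 was called (-0.38, limma adjusted p = 0.0469), against 5.99% of tested genes. All other tested partners were then nearer to 0: Rbbp4 (-0.20), E130012A19Rik (-0.17), Rbbp7 (-0.07), Phf1 (0.04) and Lcor (0.28). The summed level of the 7 partners was 477 to 539 RPKM in the clones and 567 to 654 RPKM in EB3, with no overlap. Most of it came from E130012A19Rik, Rbbp7 and Rbbp4. The sum of the 30 PRC1 subunits described next did not overlap either, at 1175 to 1187 RPKM in the clones and 1205 to 1241 RPKM in EB3.

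Of 30 further PRC1 subunits, 27 were tested and 0 were called by limma or voom. Over all tested genes 17.8% had an unadjusted p under 0.05 by limma. At an unadjusted p under 0.05 there were 2 with higher values, Cbx6 (0.33, adjusted p = 0.101) and Phc2 (0.39, adjusted p = 0.135), and 2 with lower values, Skp1a (-0.39, adjusted p = 0.116) and E2f6 (-0.26). CBX6 and PHC2 belong to canonical PRC1, SKP1 to the variant PRC1 that holds KDM2B, and E2F6 to the form with PCGF6. In all, 17 were higher and 10 lower, with a median of 0.04. This balance turned without EB3-0, when more genes were lower than higher. Pcgf1 (-0.04), Pcgf3 (-0.07), Rybp (-0.11), Bcor (-0.16), Mga (-0.21) and Phc3 (-0.30) moved below 0, and none moved above it. Cbx6, Phc2 and Skp1a were called without EB3-0, against 5.99% of tested genes. Cbx6 and 3 other genes of this list (Cbx7 at 0.21, L3mbtl2 at 0.20, Yaf2 at 0.29) lie on chromosome 15, where the median of 470 tested genes was 0.21. No member lies on that chromosome. What chromosome 15 has to do with the levels of these genes was not tested.

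Enzymes that remove the Polycomb marks, with their partners, numbered 7, and 6 were tested. 0 were called by limma or voom, and 1 had an unadjusted p under 0.05, against 17.8% of tested genes by limma. This was Kdm6b (Jmjd3), which demethylates H3K27, at 10.5, 14.8 and 10.3 RPKM in A6, B8 and C4 and 7.11, 8.53 and 9.43 RPKM in EB3-0, EB3-1 and EB3-2. The clones were all above EB3, with a log2 difference of 0.47 (adjusted p = 0.209). With all libraries the 6 differences were above 0, with a median of 0.06. Without EB3-0 only Kdm6b stayed above 0 (0.37). The others were then below 0: Bap1 (-0.004), Usp16 (-0.03), Asxl1 (-0.08), Kdm6a (-0.12) and Asxl2 (-0.28).

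Most textbook targets of Polycomb were near the floor in both groups. Of the 39 Hox genes, 31 had a mean below 0.1 RPKM, 4 were at 0 in all libraries (Hoxa2, Hoxa6, Hoxb3 and Hoxc8) and 1 reached the filter. This was Hoxc13, at 1.65 to 1.83 RPKM in the clones and 1.10 to 1.72 RPKM in EB3 (0.28, adjusted p = 0.463). Of 27 other developmental targets 6 were tested and 0 were called by limma or voom. By limma 1 had an unadjusted p under 0.05, against 17.8% of tested genes. The values were higher in the clones for 5 of the 6, with a median of 0.31, the highest among the Polycomb lists, against -0.01 over all tested genes. Pax6 had the lowest difference of the list (-0.21), and the groups overlapped.

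The cell cycle was examined because E2F factors drive both Ezh2 and replication genes. 15 of 15 genes were tested and 0 were called by limma or voom. By limma 1 had an unadjusted p under 0.05, against 17.8% of tested genes. Ccnb1 was lower in the clones (-0.44, limma adjusted p = 0.0852) and was called with the length trend removed (adjusted p = 0.0443). Mki67 had the largest difference upward (0.32), but without EB3-0 its difference was 0.06. Its level was 48.6 to 57.1 RPKM in the clones, 28.7 RPKM in EB3-0, and 48.9 and 50.4 RPKM in EB3-1 and EB3-2. 9 genes were higher and 6 lower, with a median of 0.04. Summed levels of markers of other cell types were at most 24.1 RPKM, except for neural markers. Primitive endoderm markers summed to 3.97 to 5.22 RPKM in the clones and 2.60 to 3.33 RPKM in EB3, and none of the 6 was at 0 in all libraries. Trophoblast markers summed to 7.54 to 24.1 RPKM and 5.71 to 6.53 RPKM, with Krt8 at 21.7 RPKM in B8. Fibroblast markers summed to 10.7 to 13.8 RPKM and 10.05 to 13.3 RPKM, nearly all of it Thy1, with Twist2 and Postn at 0 in every library. Of 6 neural markers 5 were used, and they summed to 86.6 to 108 RPKM in the clones and 133 to 147 RPKM in EB3, mostly Tubb3 (-0.60, adjusted p = 0.0751, and 0.0325 with the length trend removed). The part of these cells in the levels of the Polycomb genes was not tested.

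**Figure D5:**
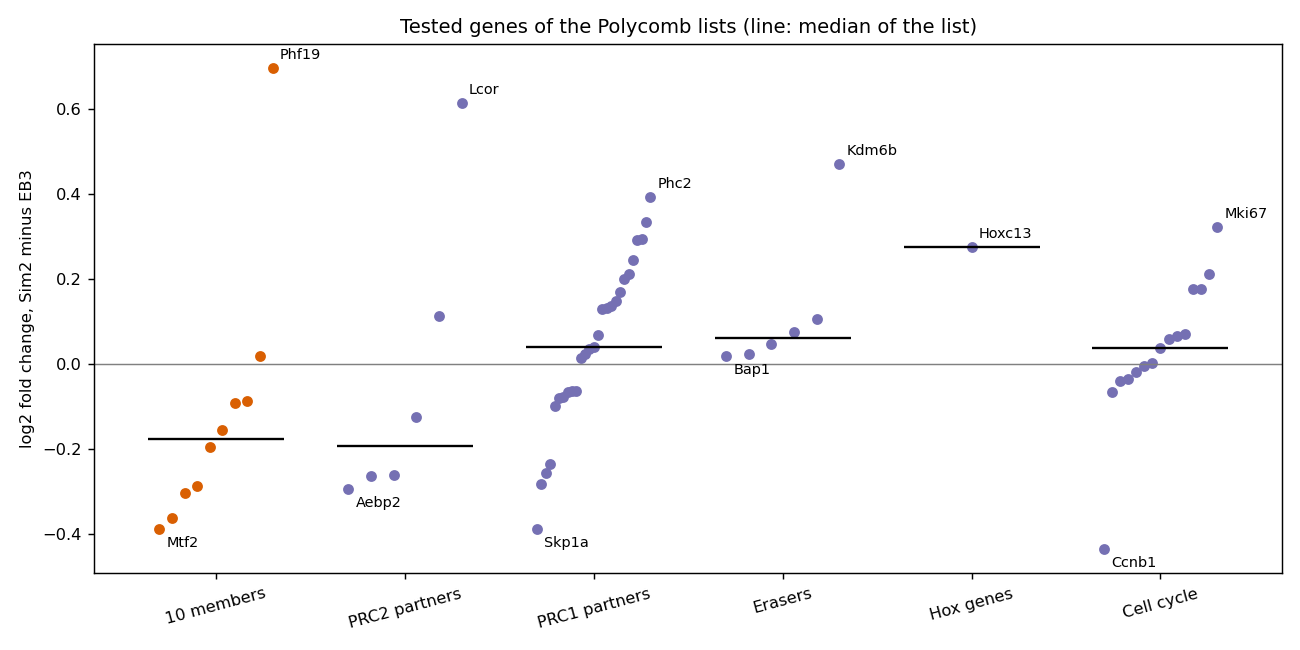
Log2 difference between Sim2 clones and EB3 (vertical axis) for the members and the tested genes of 5 lists; each point is a gene, bars are medians, and the names mark the lowest and highest gene of a list. The members and the PRC2 partners have medians of -0.18 and -0.19, and the lists of PRC1 partners, erasers and cell cycle genes have medians between 0.04 and 0.06. The list of Hox genes holds 1 tested gene, Hoxc13 at 0.28.

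The members varied little within groups. The median SD of log2 values over the 10 members was 0.09 among the clones and 0.06 among EB3 libraries, and over all tested genes it was 0.14 and 0.16. In EB3 the SD was 0.25 to 0.29 for Suz12, Mtf2 and Rnf2 and 0.17 for Jarid2, and at most 0.07 for the other 6. Among the clones Ezh1 and Phf19 varied most (0.17 and 0.16) and Eed least (0.04).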

How the data were processed

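mRNA libraries were made with the TruSeq RNA kit from 3 Sim2 clones and 3 EB3 cultures and sequenced in pairs. The authors mapped reads to mm9 with BWA, computed exon coverage per gene and deposited RPKM values for 22602 genes. The authors tested differential expression with edgeR, and at a false discovery rate under 0.05 they called more genes than limma did here. Their calls for the members are not reported here. Versions of the aligner and annotation, and the use of strand, are not given in the sources used here. Groups were taken from the sample labels.

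RPKM values are not counts. log2(RPKM + 0.5) values of the 11595 genes (51.3%) with a mean of at least 1 RPKM were fitted with limma (version 3.58.1, R 4.3.3; lmFit, eBayes with trend) on all 6 libraries with no covariate, and Benjamini-Hochberg adjustment was made over these genes. An adjusted p under 0.05 is a call. Errors are SEs of fits or SDs over 3 libraries, and permutation tests were exact and 2-sided. Single ratios were tested on the log2 scale. A design for whole counts was also written and not used. The offset of 0.5 understates differences of low genes.

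RPKM times cDNA length gave whole reads for 100% of values in every library (tolerance 0.01), with totals of 25095861 to 28269340. Mates of a pair are not independent, so fragments are fewer. voom was run on these reads as an alternative. The fits were tested on simulated data. Length trends were natural splines of 5 degrees of freedom, fitted per library. Copies of transcripts in mm9 were sought with BLAST 2.17.0. Exon counts come from a GENCODE annotation of mm9.

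The members, the lists and the settings were chosen with earlier results of these data known. All members are named with every value or its range. From each list other than the cell type markers, the called genes and the genes with the largest rise and fall are named. In these lists counts of 5 or fewer are named in full. Of the cell type markers only some genes are named. Cbx7, L3mbtl2, Yaf2, the neighbours of Eed and the genes named for being at 0 were chosen after their values were seen. So were Zfp42, Tdgf1, Esrrb and the genes named for lying below 0 or nearer to 0 without EB3-0. 1 gene of a list is not reported here. The printed p-values measure the spread between these libraries only.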

Additional observations from a re-analysis of the deposited data

How the results depend on the processing

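Of 150 alternative values for the 10 members, 134 kept their direction and their side of the threshold, 11 kept the direction and became called, and 5 changed sign. All 5 belong to Ezh1, at -0.0057 with quantile normalization, -0.017 with the length trend removed, -0.030 with that trend removed and EB3-1 and EB3-2 averaged, and -0.075 to 0.087 when leaving out 1 library. The count of members called was 0 to 5 when leaving out 1 library, 1 with the length trend removed and 5 with that trend removed and EB3-0 left out. Under these 3 settings in turn the counts were 0 to 1, 0 and 0 for PRC2 partners, 0 to 3, 1 and 3 for PRC1 partners, 0 to 1, 1 and 1 for Polycomb targets, and 0, 1 and 1 for cell cycle genes. With no filter on low values 1 PRC1 partner (Cbx6) was called. The log2 difference of the Ring1 to Rnf2 ratio ranged from -0.24 to 0.051, with the sign reversed without EB3-0. The ratio of the median SD of members among clones to that among EB3 libraries was 1.495, and 0.772 (without B8) to 2.87 (without EB3-0) when leaving out 1 library. The cause of these shifts was not tested.

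Over all tested genes 81 were called, 694 without EB3-0, 289 with the length trend removed, 852 with both, 6 with EB3-1 and EB3-2 averaged, 10 with that and the length trend removed, 6 to 20 without another library, and 23 with no filter. Settings with the length trend removed together with a change of libraries were chosen after seeing the data. No paired analysis was possible because the clones carry no numbers shared with the EB3 cultures. Depth limits Ring1 most, at 262 to 394 reads per library, and a difference of the size of that of Pcgf6 (-0.16) did not pass the test with 3 libraries per group.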

Other observations

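The genes around Eed and the counts around Ezh2 were described after their values were seen. The 7 tested genes with a start within 1 Mb of that of Eed on chromosome 7 had log2 differences from -0.45 to -0.08. They were Tmem135 (-0.08), l7Rn6 (-0.34), Picalm (-0.27), Ccdc89 (-0.45), Crebzf (-0.42), Tmem126a (-0.43) and Tmem126b (-0.45). The values of the clones were all below those of EB3 in 4 of the 7, against 13.4% of tested genes. No gene of the 7 had a limma adjusted p under 0.05 with all libraries, against 0.699% of tested genes. Without EB3-0, 4 did, against 5.99%. The median over the 7, relative to EB3, was -0.30 for A6, -0.50 for B8 and -0.27 for clone C4, so all 3 clones were on the same side. With the length trend removed the median difference was -0.32. The value of Eed (-0.36) lies inside the range of its neighbours. Around Phf19 on chromosome 2 the 13 tested neighbours ranged from -0.09 to 0.40, with a median of 0.11 and 10 higher in the clones. Phf19 (0.70) lies above that range. Around Ezh2, itself at -0.09, 11 of 12 tested neighbours were higher, with a median of 0.11. Around each other member some neighbours were higher and some were not. Jarid2, Mtf2 and Rnf2 stand on the study's list of genes closest to SIM2-bound regions, and the other 7 members do not. Among all tested genes 1169 of 11595 (10.1%) are on that list, of which 1823 genes could be matched to the expression table by symbol. This overlap was not tested.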
